A study of Mus musculus with 14 samples.

Results

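*Racgap1* and 8 genes that act with it in cytokinesis were followed across bulk RNA-seq libraries of whole, undissociated tissue. The 9 genes (*Racgap1*, *Kif23*, *Ect2*, *Anln*, *Prc1*, *Aurkb*, *Plk1*, *Cit*, and *Incenp*) were selected by symbol from the 24062 genes of the count table. *Racgap1* was chosen because of its level in plexiform neurofibromas (PNs) compared with controls, so that difference is given here as a description without a test. The 8 partners were chosen by function. The controls were dorsal root ganglia (DRGs) with their nerve roots and trunks from *Nf1fl/fl* mice (n = 3), which carry the floxed alleles without Cre. The PNs came from *DhhCre;Nf1fl/fl* mice, in which *Dhh* regulatory sequence drives Cre in the Schwann cell (SC) lineage, so that other cells of the tumor keep *Nf1*. By MRI at 7 and 9 months, 5 PNs changed in volume by less than 5 mm3 and are called slow growing, and 6 grew by more than 35 mm3 and are called fast growing. All mice were of a mixed C57BL/6, I-129, and FVBN background, received no drug, and were adult, with an age of 9 months in the methods and of 7 months in a figure legend. Libraries are named here by the number or tag in their titles.

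Between 9596773 and 17594164 reads were counted on genes per library, and 3 counts corresponded to 0.167 to 0.313 CPM (counts of a gene per library size after TMM scaling). *Nf1* itself ranged from 129 to 227 CPM in controls and was between 225 and 294 CPM in PNs. These counts cover the whole gene in all cells of the tissue, so they do not check its loss from SCs. One fast-growing PN, 1191, stood apart. Its 7 neuron markers summed to 30.8 CPM, against 1310 to 10500 CPM in the remaining libraries. *Sox10*, the transcription factor gene of the SC lineage, was present in all groups, from 33.1 to 118 CPM in controls against 65.2 to 236 CPM in PNs. Controls carried more skeletal muscle transcripts, with 2620 to 10100 CPM over 8 markers against 10.5 to 2420 CPM in PNs. Fat transcripts, over 6 markers, summed to 3290 to 4850 CPM in controls and 5.11 to 2430 CPM in PNs. In bulk tissue, fewer cells of a type and less RNA per cell cannot be told apart. Preparation and tissue cannot be told apart for any difference from controls, because each library was made from either a control or a PN.

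Cytokinesis splits a cell after its chromosomes have separated. RACGAP1, a GTPase-activating protein, and the kinesin KIF23 form centralspindlin, which bundles microtubules midway between the separating chromosomes and recruits ECT2, the exchange factor that loads RhoA with GTP. Active RhoA then builds the contractile ring, where anillin (*Anln*) links actin, myosin, and septins and where citron kinase (*Cit*) acts. PRC1 crosslinks the antiparallel microtubules of the central spindle, PLK1 phosphorylates RACGAP1 so that ECT2 can bind it, and the kinase AURKB with its scaffold INCENP belongs to the chromosomal passenger complex. Most of these genes are transcribed late in the cell cycle, and their transcripts are few in tissue that rarely divides. The repressor and activator complexes that time this transcription bind cell cycle homology elements, with TTTGAA as a common core, and CCAAT boxes close to the start site.

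Promoter sequences were examined because most of the partners varied together across PNs, as given after the levels. In the RefSeq promoter table (GRCm38.p6, 250 bases before to 50 bases after the start), 7 of the 9 genes matched an entry by symbol. *Aurkb* and *Incenp* had none. TTTGAA was found on either strand in 6 of these 7 genes (85.7%), compared with 20.2% of 27025 genes in the table, and CCAAT was found in 5 of 7 (71.4%), compared with 41.1%. Both motifs were present in 5 of the 7 (*Racgap1*, *Kif23*, *Ect2*, *Prc1*, and *Plk1*) and in 7.97% of all genes. *Anln* had TTTGAA without CCAAT, and *Cit* had neither. The *Cit* entry, from 115845406 to 115845705, lies wholly inside the gene as annotated in GENCODE vM21, which begins at 115845278. Bases before that start were thus not searched, and the lack of motifs in *Cit* holds only for this entry. The motifs were chosen with the results known, and a match describes letters in a window. The 5 windows printed here, of 160 bases each (110 before and 50 after the start), show the *Racgap1* promoter, those of 2 microtubule partners that hold both motifs, that of *Anln*, and that of *Cit*. Each is written 5′ to 3′ on the strand of the gene, and capitals mark TTTGAA and CCAAT or their reverse complements (TTCAAA and ATTGG). No matches overlapped in them. The windows lie at chr15:99651607-99651766 (minus strand) for *Racgap1*, chr9:61946750-61946909 (minus) for *Kif23*, chr7:80294341-80294500 (plus) for *Prc1*, chr9:22389157-22389316 (minus) for *Anln*, and chr5:115845546-115845705 (plus) for *Cit*.
Racgap1: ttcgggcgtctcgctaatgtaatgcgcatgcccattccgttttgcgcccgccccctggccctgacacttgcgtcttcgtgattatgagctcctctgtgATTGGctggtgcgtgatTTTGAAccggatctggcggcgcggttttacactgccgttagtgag
Kif23: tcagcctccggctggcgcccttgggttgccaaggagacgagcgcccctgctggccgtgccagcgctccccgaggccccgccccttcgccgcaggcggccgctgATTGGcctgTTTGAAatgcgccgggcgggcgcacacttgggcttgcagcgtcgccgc
Prc1: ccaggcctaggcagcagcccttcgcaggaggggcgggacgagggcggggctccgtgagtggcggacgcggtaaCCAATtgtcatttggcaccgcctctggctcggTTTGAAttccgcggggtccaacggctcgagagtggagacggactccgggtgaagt
Anln: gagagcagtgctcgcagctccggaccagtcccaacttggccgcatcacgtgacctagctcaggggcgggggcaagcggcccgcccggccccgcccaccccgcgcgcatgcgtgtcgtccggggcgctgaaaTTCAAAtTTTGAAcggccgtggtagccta
Cit: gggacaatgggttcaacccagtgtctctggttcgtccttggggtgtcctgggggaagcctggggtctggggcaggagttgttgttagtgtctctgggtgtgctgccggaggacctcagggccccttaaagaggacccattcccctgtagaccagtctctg
In the *Racgap1* window, the CCAAT box, on the opposite strand, begins 12 bases before the start and TTTGAA begins 5 bases after it. *Kif23* has the same arrangement, with the box 7 bases before the start and TTTGAA 2 bases after it.

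*Racgap1* was far higher in every PN than in every control. The gene lies on chromosome 15 at 99620496 to 99651656 on the minus strand (GRCm38, the mm10 assembly, with GENCODE vM21 annotation) and has 15 merged exons, none of which overlaps an exon of another gene. Its level was 6.43, 8.52, and 11.67 CPM in the controls DRG3, DRG4, and DRG5. In slow-growing PNs it was 195 (1079), 191 (1198A), 168 (1202), 167 (1203), and 204 CPM (1206). In fast-growing PNs it ranged from 170 to 215 CPM with a median of 185 CPM. The groups of PNs overlapped with each other and neither overlapped with controls, and the lowest PN was 14.3 times the highest control. The mean was 8.88 ± 2.64 CPM (SD, n = 3) in controls, 185 ± 16.6 CPM (n = 5) in slow-growing PNs, and 188 ± 15.6 CPM (n = 6) in fast-growing PNs. These are ratios to controls of 20.9 and 21.2. The spread among PNs was small, with a coefficient of variation of 8.19% over 11 PNs, compared with 30.9% for *Incenp*, the least variable partner there, and 77.5% for *Aurkb*, the most variable. Counting error differs between these genes, since *Incenp* had 54 to 177 counts in PNs and *Aurkb* 9 to 104. In the 3 controls the coefficient was 29.7% for *Racgap1*, between 11.1% for *Cit*, the least variable partner there, and 88.9% for *Plk1*, the most variable. Reads were sufficient for these levels, since *Racgap1* had 75 to 112 counts in controls and 1648 to 3288 in PNs.

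*Racgap1* did not pass the test between fast- and slow-growing PNs. This contrast was not used to choose the gene. The log2 fold change was 0.02 with a standard error (SE) of 0.106, and its approximate 95% interval ran from -0.187 to 0.227 (edgeR quasi-likelihood test, Benjamini-Hochberg adjusted p = 0.924). The ratio of the group means was 1.02.

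**Figure D1:**
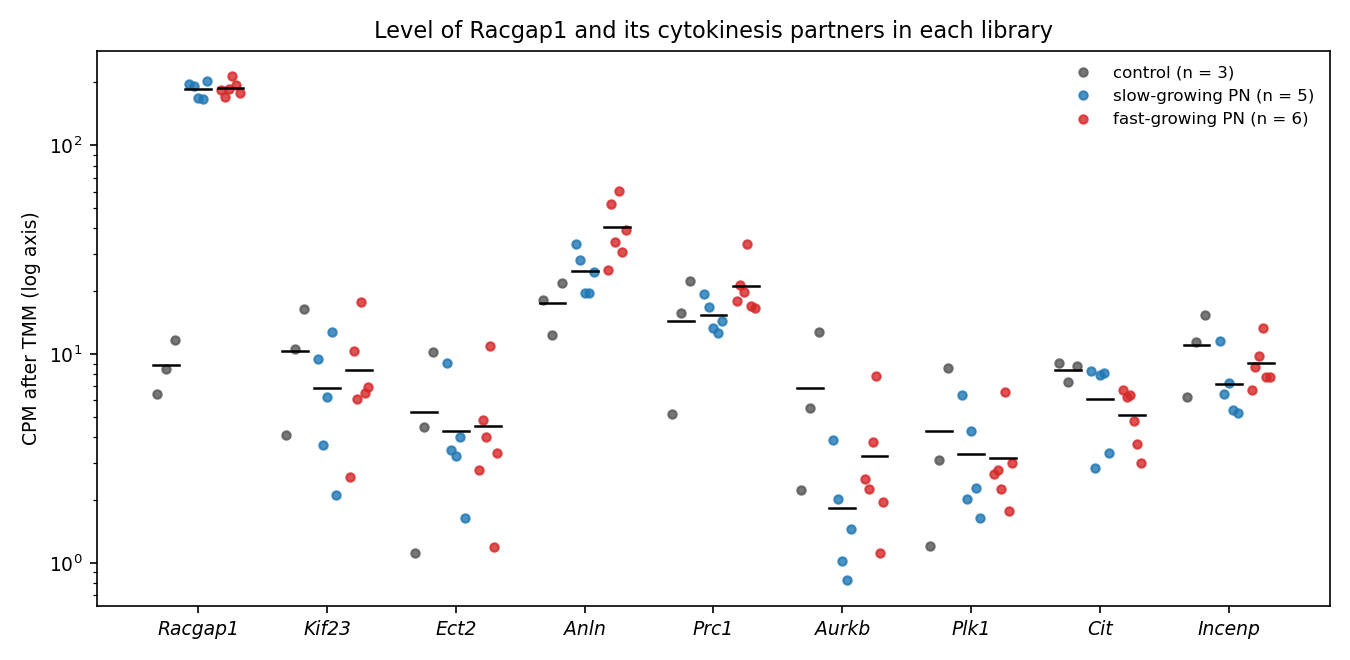
Level of each of the 9 genes in CPM after TMM scaling, on a log axis, with 1 point per library and a black line at the group mean. *Racgap1* lay between 167 and 215 CPM in all 11 PNs and at or below 11.7 CPM in controls, whereas PNs overlapped with controls for every partner, with the exceptions of *Anln* and *Cit* in fast-growing PNs.

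The proportions of the transcripts differed accordingly between controls and PNs. Per kilobase of the longest annotated transcript, *Racgap1* was at 1.98 ± 0.59 CPM per kb in controls (SD, n = 3). There it ranked below *Prc1* (3.97), *Anln* (3.8), *Aurkb* (3.51), *Incenp* (3.19), and *Kif23* (3.04), and above *Plk1* (1.95), *Ect2* (1.29), and *Cit* (0.882). Each gene overlapped with its neighbour in this order. In PNs *Racgap1* was at 41.7 ± 3.41 CPM per kb (n = 11), and the next gene, *Anln*, was at 7.27 ± 2.82, followed by *Prc1* (5.07), *Incenp* (2.37), *Kif23* (2.26), *Plk1* (1.48), *Aurkb* (1.34), *Ect2* (1.08), and *Cit* (0.587). *Racgap1* stood clear of *Anln* there, whereas the partners again overlapped with their neighbours. The ratio of *Racgap1* to *Kif23*, the other subunit of centralspindlin, was 0.542 to 1.19 per kb in controls and 9.14 to 72.9 in PNs, with medians of 20.5 in slow-growing and 21.2 in fast-growing PNs. The ratio to *Ect2* was 1.04 to 5.27 in controls and 18 to 150 in PNs. For each of the 8 partners, the lowest ratio in PNs lay above the highest in controls, a pattern that follows from the choice of *Racgap1*.

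Of the partners, none passed the test when all PNs were compared with controls. By edgeR, the count was 0 of 8 partners, where 26.3% of the 16283 genes tested were called. At an unadjusted p under 0.05 there were 2 (*Anln* and *Aurkb*), where 38.9% of all genes were at that level, and DESeq2 called 1 (*Anln*). Shares of all genes called are from edgeR throughout, and none is given for DESeq2. All 9 genes passed the filter on low counts in each comparison. The median log2 fold change of the 8 partners was -0.43, compared with 0.10 over all genes tested. Only *Anln* and *Prc1* had positive estimates. Without 1 library the count rose to 1 in 4 cases, namely *Aurkb* without DRG3 (-1.82, edgeR adjusted p = 0.0421) or without 1191 (-1.74, adjusted p = 0.0187), and *Anln* without 1202 (0.95, adjusted p = 0.0434) or without 1203 (0.98, adjusted p = 0.0361).

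*Kif23* (chromosome 9, 61915905 to 61946774) and *Ect2* (chromosome 3, 27097222 to 27153878), the direct partners of *Racgap1*, spread widely in all groups. *Kif23* was measured at 4.12, 10.54, and 16.36 CPM in DRG3, DRG4, and DRG5. In slow-growing PNs it was at 9.49, 3.68, 6.23, 12.73, and 2.12 CPM, in the order given for *Racgap1*. In fast-growing PNs it ranged from 2.57 to 17.8 CPM, with a median of 6.73 CPM. The groups overlapped, and 1206, the slow-growing PN highest in *Racgap1*, was the lowest of all libraries in *Kif23*. The log2 fold change of *Kif23* in PNs versus controls was -0.45 (SE 0.538, approximate 95% interval -1.5 to 0.608, edgeR adjusted p = 0.572). *Ect2* was at 1.11, 4.49, and 10.21 CPM in controls, 1.64 to 9.11 CPM in slow-growing PNs, and 1.19 to 10.9 CPM in fast-growing PNs, so it also overlapped throughout. Its log2 fold change was -0.27 (SE 0.617, interval -1.48 to 0.941, edgeR adjusted p = 0.782). Both estimates turned positive when DRG5 was left out, to 0.05 for *Kif23* and 0.64 for *Ect2*.

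*Prc1* and *Plk1*, of the central spindle, overlapped between groups as well. *Prc1* (chromosome 7, 80294450 to 80316259) was at 5.14, 15.76, and 22.51 CPM in controls, 12.6 to 19.4 CPM in slow-growing PNs, and 16.7 to 33.8 CPM in fast-growing PNs. Its log2 fold change in PNs versus controls was 0.34 (SE 0.351, edgeR adjusted p = 0.507), with -0.06 without DRG3 and 0.81 without DRG5. Exons of *Prc1* share 911 bases with *Rccd1* on the opposite strand, and since a strand setting is not given in the sources used here, reads there cannot be assigned to 1 gene. *Plk1* (chromosome 7, 122159439 to 122169873) was at 1.2, 3.12, and 8.55 CPM in controls, 1.64 to 6.38 CPM in slow-growing PNs, and 1.78 to 6.58 CPM in fast-growing PNs. It gave a log2 fold change of -0.41 (SE 0.517, edgeR adjusted p = 0.586), which was 0.58 without DRG5. Its exons share 156 bases with *Gm44985* on the opposite strand.

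The members of the chromosomal passenger complex had negative estimates that did not pass the test and that depended on DRG5. *Aurkb* (chromosome 11, 69045647 to 69051664) was at 2.23, 5.5, and 12.82 CPM in controls. It was at 3.87, 2.03, 1.02, 0.82, and 1.45 CPM in slow-growing PNs and at 1.11 to 7.86 CPM in fast-growing PNs. Of 11 PNs, 6 lay below every control and 0 above. The log2 fold change was -1.40 in PNs versus controls (SE 0.577, edgeR adjusted p = 0.0866) and -1.93 in slow-growing PNs versus controls (SE 0.645, adjusted p = 0.0891). Without DRG5, the control highest in *Aurkb*, the estimate against controls was -0.57 over all PNs, -1.12 for the slow-growing group, and -0.27 for the fast-growing group. *Incenp* (chromosome 19, 9872296 to 9899551) was at 6.26, 11.45, and 15.32 CPM in controls, 5.2 to 11.5 CPM in slow-growing PNs, and 6.75 to 13.4 CPM in fast-growing PNs. Its log2 fold change was -0.44 in PNs versus controls (SE 0.292, edgeR adjusted p = 0.282), -0.13 without DRG5 and -0.72 without DRG3. In fast-growing PNs versus controls its estimate was -0.37, and 0.01 without DRG5. Lymphocyte transcripts were high in 2 of the 3 controls, with sums over 5 markers of 166 CPM in DRG4 and 148 CPM in DRG5, whereas DRG3, at 3.94 CPM, lay within the PN range of 1.95 to 76.8 CPM. With the mean of the lymphocyte markers as a covariate, added after the values had been seen, the *Aurkb* estimate in PNs versus controls was -0.13 (edgeR adjusted p = 0.924). Markers of marrow erythroid and granulocyte precursors, 6 genes, summed to 323 CPM in DRG5, the highest of all libraries, against 133 CPM in DRG3, 60 CPM in DRG4, and 18 to 135 CPM in PNs. In PNs versus controls, 4 of 5 tested were called lower, where 26.3% of all genes tested were called in either direction. The part of these precursors in the estimates was not tested.

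*Anln* and *Cit*, of the contractile ring, were the partners that separated fast-growing PNs from controls. *Anln* (chromosome 9, 22332012 to 22389188) was at 18.09, 12.37, and 21.99 CPM in controls and at 33.49, 28.26, 19.51, 19.60, and 24.77 CPM in slow-growing PNs. In the fast-growing PNs 1053, 1071, 1179, 1191, 1214, and 1216 it was at 25.21, 52.07, 34.59, 60.54, 30.80, and 39.33 CPM. All 6 fast-growing PNs lay above every control, as did 3 of 5 slow-growing PNs. *Cit* (chromosome 5, 115845278 to 116008947) was at 9.09, 7.33, and 8.76 CPM in controls, 2.86 to 8.28 CPM in slow-growing PNs, and 3.03 to 6.69 CPM in fast-growing PNs. All 6 fast-growing PNs lay below every control. *Cit* has 19 annotated transcripts, and counts per gene do not separate citron kinase from the shorter neuronal form. In 1191, which had nearly no neuron markers, *Cit* was at 4.76 CPM, within the range of the remaining fast-growing PNs.

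In fast-growing PNs versus controls, 1 of 8 partners passed the edgeR test, where 31.4% of 16037 genes did. *Anln* rose, with a log2 fold change of 1.14 (SE 0.314, edgeR adjusted p = 0.0216) and a ratio of means of 2.31. *Cit*, at -0.78 (SE 0.273, edgeR adjusted p = 0.0549), did not pass, although DESeq2 called it (adjusted p = 0.0269). The *Anln* call was kept in 7 of 9 fits that left out 1 library. It was lost without DRG3 (1.14, adjusted p = 0.0532) and without DRG4 (0.94, adjusted p = 0.092), so the partner count there was 0. It was also lost with skeletal muscle and fat markers as covariates (2.05, edgeR adjusted p = 0.609), where the estimate was larger, not smaller. Both marker means lay lower in every fast-growing PN than in every control. For fat, the mean log2(CPM + 1) was 0.57 to 4.22 against 8.8 to 9.24. That fit therefore cannot separate muscle and fat content from group. The call was lost as well with the lymphocyte covariate (1.18, adjusted p = 0.0675). With the lymphocyte covariate *Prc1* passed in place of *Anln* (1.54, edgeR adjusted p = 0.0283). Fibroblast markers moved the same way as *Anln*, with 5 of 5 called higher (*Dcn*, *Lum*, *Col1a1*, *Pdgfra*, and *Col1a2*) and sums of 1690 to 3290 CPM in controls against 4430 to 9210 CPM in fast-growing PNs. The glial genes *Kcnj10* (log2 fold change 3.31, edgeR adjusted p = 5.85e-05) and *Sox10* (1.29, edgeR adjusted p = 0.018) were also called higher. The part of these cells in the *Anln* result was not tested.

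In slow-growing PNs versus controls, 0 of 8 partners passed the edgeR test, where 11.3% of 15714 genes did. At an unadjusted p under 0.05 there was 1 (*Aurkb*), which DESeq2 also called (adjusted p = 0.0275), where 30.3% of all genes were at that level in edgeR. Without DRG3, *Aurkb* passed in edgeR (-2.35, adjusted p = 0.0387) and the count was 1, whereas without DRG5 the *Aurkb* estimate was -1.12 (adjusted p = 0.411). The *Anln* estimate was 0.47 (SE 0.264, edgeR adjusted p = 0.253). These comparisons share the 3 control libraries. In simulated counts with the sizes of these libraries, the edgeR test recovered 0% of genes with a log2 fold change of 1 for slow-growing PNs versus controls, 16.3% for fast-growing PNs versus controls, and 29.3% for PNs versus controls. Partner differences of that size could thus have been missed.

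**Figure D2:**
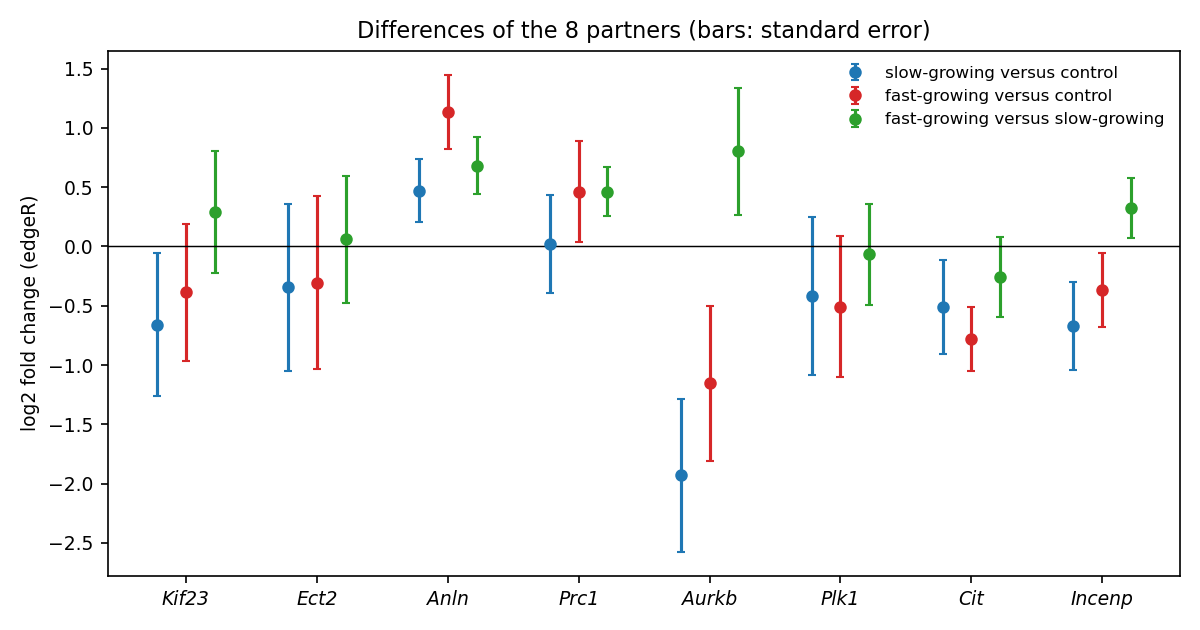
Log2 fold change of each of the 8 partners from edgeR in 3 comparisons, with bars for the standard error. Only *Anln* in fast-growing PNs versus controls (1.14) passed the adjusted threshold of 0.05, and *Aurkb* had the most negative estimates (-1.93 in slow-growing PNs).

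Between fast- and slow-growing PNs, 0 of 8 partners passed the edgeR test, where 1.27% of 15465 genes did. At an unadjusted p under 0.05, as for 20.4% of all genes, there were 2, *Anln* with a log2 fold change of 0.68 (SE 0.243, edgeR adjusted p = 0.143) and *Prc1* with 0.46 (SE 0.206, edgeR adjusted p = 0.236), and DESeq2 called 0. Estimates were positive for 6 of 8 partners, with a median of 0.31, against -0.03 over all genes tested. *Plk1* (-0.07) and *Cit* (-0.26) were the exceptions. Markers of other cells differed in the same contrast, although none passed in edgeR. All 5 macrophage markers were at an unadjusted p under 0.05 (4 called by DESeq2, median log2 fold change 1.75, sums of 31.5 to 280 CPM in slow-growing and 173 to 470 CPM in fast-growing PNs). So were all 5 fibroblast markers (3 called by DESeq2, median 1.11, 1130 to 5080 CPM and 4430 to 9210 CPM), whereas 5 of 6 fat markers were lower at that level (5 called by DESeq2, median -3.87, 8.42 to 2430 CPM and 5.11 to 213 CPM). Their part in the partner and mitotic estimates was not tested. A missed threshold does not show that the groups were alike. The approximate 95% interval was 0.206 to 1.16 for *Anln*, -0.722 to 1.3 for *Kif23*, and -0.255 to 1.86 for *Aurkb*. The 1191 library was the highest PN for 8 of the 9 genes, all but *Cit*, and without it 4 of 8 partner estimates were positive, with 0.51 for *Anln*, 0.26 for *Prc1*, 0.31 for *Aurkb*, -0.08 for *Kif23*, and -0.42 for *Ect2*.

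Across the 11 PNs, no partner followed the level of *Racgap1* beyond the adjusted threshold. Pearson's r with *Racgap1*, on log2(CPM + 1), ran from -0.458 for *Cit* to 0.602 for *Aurkb*. In 100000 permutations, 0 of 8 correlations had an adjusted p under 0.05 over the 8 computed, and 1, *Aurkb*, had an unadjusted p under 0.05 (permutation p = 0.0491, adjusted p = 0.254, Spearman's rho 0.555 with permutation p = 0.0833). *Kif23* had r = -0.0774 (permutation p = 0.821, rho -0.136 with permutation p = 0.695), and *Ect2* had r = 0.168 (permutation p = 0.619, rho 0.0455 with permutation p = 0.903). Without the 2 PNs farthest from the median of *Racgap1*, 1191 and 1203, r was 0.125 for *Aurkb*, -0.0737 for *Prc1*, and -0.45 for *Kif23*. The r of *Aurkb* and *Prc1* thus fell to near 0 without these libraries, whose removal also narrows the range of *Racgap1*. Leaving out single libraries moved the highest r between 0.327 (without 1191) and 0.743 (without 1206, 3 of 8 at an unadjusted permutation p under 0.05), and 0 of 8 passed the adjusted threshold each time. Centred within slow- and fast-growing PNs, r was 0.632 for *Prc1* and 0.616 for *Aurkb*, and 0 of 8 passed (2 unadjusted). Within the 6 fast-growing PNs, r ran from -0.199 (*Cit*) to 0.668 (*Incenp*, exact permutation p = 0.147, adjusted p = 0.478). No correlation was computed within the 5 slow-growing PNs, since at least 6 libraries were required. *Racgap1* varied little among PNs, which limits what a correlation with it can show.

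The partners other than *Cit* varied together across PNs. Among the 8 partners, 26 of 28 pairs had a positive r across the 11 PNs, with a median of 0.607. Without *Cit*, all 21 pairs were positive, from 0.36 to 0.916. These pairs share libraries and scaling, and the values are a description. The partners were then compared with the mean log2(CPM + 1) of 30 other genes of mitosis, none of them among the 9, in an analysis added after the values had been seen. Over the 11 PNs, r with this mean was 0.969 for *Incenp*, 0.91 for *Prc1*, 0.897 for *Aurkb*, and 0.85 for *Anln*. The permutation p for *Incenp* was 1e-05, the smallest that 100000 permutations can give, and the adjusted p over the 9 genes was 9e-05. The adjusted permutation p was 0.00045 for *Prc1*, 0.00066 for *Aurkb*, and 0.00202 for *Anln*. Spearman's rho was 0.9, 0.873, 0.845, and 0.9 for the same 4 genes (adjusted permutation p = 0.00166, 0.00306, 0.00421, and 0.00166). *Ect2* (0.803, adjusted permutation p = 0.00619) and *Plk1* (0.763, adjusted permutation p = 0.0109) also passed, but rested on 1191 and 1079, the PNs farthest from the median, without which r was 0.434 and 0.286. Spearman's rho was 0.673 for *Ect2* (adjusted permutation p = 0.0497) and 0.564 for *Plk1*, which did not pass (adjusted permutation p = 0.115). *Kif23* (0.583, adjusted permutation p = 0.0751), *Racgap1* (0.434, adjusted permutation p = 0.206), and *Cit* (0.114, adjusted permutation p = 0.738) did not pass over all 11 PNs, nor did their rho of 0.455, 0.427, and -0.0545 (adjusted permutation p = 0.211, 0.216, and 0.88). Without 1191 and 1079, r was 0.922 for *Incenp*, 0.881 for *Prc1*, 0.855 for *Anln*, and 0.723 for *Aurkb*. It was 0.225 for *Kif23*, -0.0142 for *Cit*, and -0.157 for *Racgap1*. Within the 6 fast-growing PNs, r was 0.951 for *Incenp* (exact permutation p = 0.00833, adjusted p = 0.025) and 0.515 for *Racgap1* (exact permutation p = 0.301, adjusted p = 0.339). *Kif23* (0.879, adjusted exact permutation p = 0.0458) passed there, as did *Ect2* (0.94), *Prc1* (0.956), and *Anln* (0.898), each at an adjusted exact permutation p of 0.025, and *Aurkb* (0.871, adjusted exact permutation p = 0.0458). *Plk1* (0.869, adjusted exact permutation p = 0.0607) and *Cit* (0.105, adjusted exact permutation p = 0.851) did not. Whether the correlation of *Racgap1* differs from those of its partners was not tested.

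**Figure D3:**
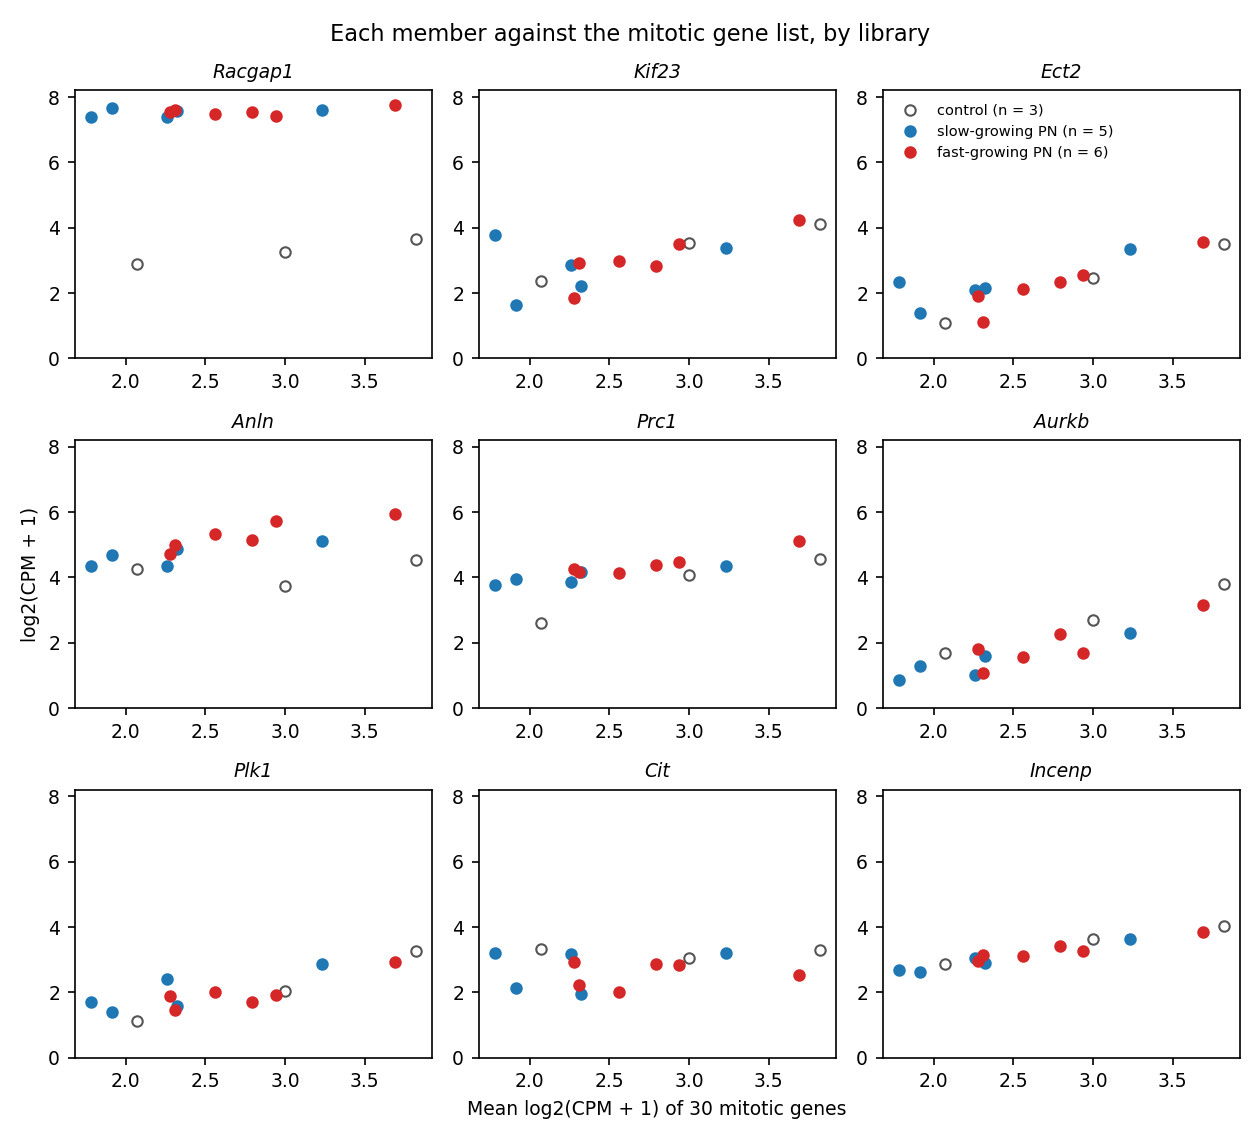
Level of each of the 9 genes, as log2(CPM + 1), against the mean log2(CPM + 1) of 30 mitotic genes, with 1 point per library and all panels on the same scale. *Incenp*, *Prc1*, *Aurkb*, and *Anln* climb with the mitotic mean across PNs (r from 0.85 to 0.969), and *Racgap1*, with r = 0.434, lies in all PNs above the 3 controls.

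Other transcripts of dividing cells were compared in the same way. Of the 30 mitotic genes, 1 rose and 3 fell in PNs versus controls by edgeR, where 26.3% of all genes were called, and the median log2 fold change was -0.67. *Hmmr*, which encodes a spindle and hyaluronan-binding protein, rose (0.75, SE 0.255, edgeR adjusted p = 0.043). *Cks2*, a cofactor of cyclin-dependent kinases, fell by 1.26, *Ube2c*, which feeds the anaphase-promoting complex, fell by 1.25, and *Aurka*, a spindle pole kinase, fell by 1.12 on the log2 scale. *Mki67*, the proliferation marker, was at 43, 129, and 318.5 CPM in controls, 11.6 to 123 CPM in slow-growing PNs, and 26.1 to 179 CPM in fast-growing PNs (log2 fold change in PNs versus controls -1.44, SE 0.641, edgeR adjusted p = 0.111). *Top2a*, which untangles DNA, spanned 9.6 to 93 CPM in controls against 3.02 to 77.6 CPM in PNs (-0.88, SE 0.757, edgeR adjusted p = 0.416). For both genes the groups overlapped. The number of mitotic genes called in PNs versus controls was 1 without DRG5, 2 without DRG4, 2 without 1198A, and 7 without 1191, and it was 1 with the lymphocyte covariate. For fits that leave out a library or add a covariate, the share of all genes called is not given. In slow-growing PNs versus controls, 1 gene of 30 (*Aurka*) fell, where 11.3% of all genes were called. The count was 3 without DRG3 and 0 without any 1 of the remaining 7 libraries. In fast-growing PNs versus controls, 0 of 30 passed in edgeR, against 31.4% of all genes (3 at an unadjusted p under 0.05, against 41.8% of all genes, 3 by DESeq2), and the count was 2 without DRG3, 2 without DRG5, and 5 without 1191. Between fast- and slow-growing PNs, 0 of 29 tested genes passed in edgeR, against 1.27% of all genes (2 at an unadjusted p under 0.05, against 20.4% of all genes, 0 by DESeq2). There, 27 of 29 estimates were positive, with a median of 0.58, beside the macrophage and fibroblast differences given above. Of the PNs, the fast-growing 1191 had the highest mean log2(CPM + 1) of the 30 genes, at 3.69, followed by the slow-growing 1079 at 3.23.

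The rest of the cytokinesis machinery had calls in both directions in PNs versus controls, where 26.3% of all genes tested were called. The 9 genes themselves were left out of these lists, which were compiled by function with results known. Among 5 further genes of RhoA activation, *Rac1*, a target of the GTPase-activating domain of RACGAP1, rose in PNs versus controls (435 ± 50.9 CPM, n = 3, against 624 ± 47.6, n = 11, log2 fold change 0.50, edgeR adjusted p = 0.00949). *Rhoa* had 212 ± 12.1 CPM in controls against 268 ± 28.4 CPM in PNs (0.32, edgeR adjusted p = 0.0735). Of 7 further genes of the central spindle, 1 rose (*Clasp2*, a microtubule-stabilizing protein, 0.63, edgeR adjusted p = 0.0324). Of the 2 tested genes of the passenger complex, *Cdca8*, which encodes borealin, fell by 1.51 (edgeR adjusted p = 0.019). It spanned 1.8 to 11.4 CPM in controls against 1.34 to 4.16 CPM in PNs, so the groups overlapped. Of 11 further genes of the contractile ring, 1 rose and 2 fell. *Sept2*, which encodes a septin, rose from 102 ± 6.22 CPM to 212 ± 59.5 CPM (1.04, edgeR adjusted p = 0.00897). *Mylk*, which encodes myosin light chain kinase, and *Myl9*, a myosin light chain gene, both high in smooth muscle, fell by 1.33 and 1.90 (edgeR adjusted p = 0.0362 and 0.0321). Of 16 abscission genes, *Pdcd6ip*, which encodes the ESCRT adaptor ALIX, rose (0.51, edgeR adjusted p = 0.00228), and the ESCRT-III genes *Chmp6* and *Chmp2a* fell by 0.57 and 0.72 (edgeR adjusted p = 0.0201 and 0.000533).

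In fast-growing PNs versus controls, where 31.4% of all genes were called, 4 of 11 ring genes and 5 of 16 abscission genes passed. *Clasp2* (0.49, edgeR adjusted p = 0.0884) and *Cdca8* (-1.42, edgeR adjusted p = 0.0701) did not. *Sept9* rose with *Sept2*, from 50 ± 1.95 CPM to 127 ± 26.6 CPM (log2 fold change 1.27, edgeR adjusted p = 0.0018). *Chmp4c*, an ESCRT-III gene of the abscission checkpoint, rose from 2.01 ± 0.939 CPM to 8.1 ± 1.65 CPM (1.94, edgeR adjusted p = 0.0018), and *Chmp4b* fell by 0.68 (edgeR adjusted p = 0.0123). In slow-growing PNs versus controls, where 11.3% of all genes were called, 0 of 11 ring genes and 1 of 16 abscission genes (*Chmp2a*, lower) passed. *Sept9* (0.48, edgeR adjusted p = 0.366) and *Chmp4c* (0.69, edgeR adjusted p = 0.515) did not pass there. No gene of these 5 lists passed between fast- and slow-growing PNs in edgeR. By list, in the order above, 2, 0, 0, 4, and 2 genes had an unadjusted p under 0.05 there, against 20.4% of all genes, and DESeq2 called 1, 0, 0, 1, and 1.

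Transcription factors that drive such genes were also examined. Of 17 regulators tested in PNs versus controls, 2 rose, *E2f1* and *Rbl2*, and 0 fell, against 26.3% of all genes called. *E2f1*, an activator of S phase genes, averaged 7.8 ± 1.33 CPM in controls against 17.9 ± 3.43 CPM in PNs (1.18, edgeR adjusted p = 0.000583). *Rbl2*, which encodes the pocket protein p130 of a repressor complex, rose less (0.39, edgeR adjusted p = 0.0225). *Foxm1*, an activator of late cell cycle genes, spanned 3.09 to 10.1 CPM in controls against 2.86 to 21.6 CPM in PNs (0.18, edgeR adjusted p = 0.833).

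The genes whose levels were most like those of *Racgap1* over all 14 libraries were not cytokinesis genes. By Pearson's r on log2(CPM + 1), among 16282 genes, they were *Gm10845* (0.993), *D330041H03Rik* (0.992), *Gm6602* (0.991), *Zfp277* (0.99), and *Btbd16* (0.989). These values describe a step between controls and PNs that the 14 libraries share, and they carry no test. *Gm10845* was at 53.2 ± 1.93 CPM in controls, 208 ± 23.8 CPM in slow-growing PNs, and 202 ± 16.6 CPM in fast-growing PNs. *Zfp277*, a zinc finger gene, was at 89.6 ± 6.78, 356 ± 32.6, and 341 ± 30.6 CPM. *Gm6602* averaged 0.104 CPM in controls, under the level of 3 counts, against 8.15 ± 1.54 CPM in PNs. The best-ranked partner was *Anln*, at r = 0.63 and rank 2311, followed by *Prc1* at 0.452 and rank 4011. *Kif23* had r = -0.184 and rank 10603, and *Cit* had the last rank of the 8, 13223, at -0.515.

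The genes next to *Racgap1* on chromosome 15 had estimates on both sides of 0. Of the 10 nearest genes of the table on each side, 15 of 20 were tested in PNs versus controls, 4 rose, and 3 fell, where 26.3% of all genes tested were called. *Asic1*, a neuronal ion channel gene whose start lies 18.7 kb away, averaged 18.3 ± 11.2 CPM in controls against 17.1 ± 8.78 CPM in PNs (-0.12, edgeR adjusted p = 0.912). *Smarcd1*, a chromatin remodeling gene, rose (0.84, edgeR adjusted p = 0.00135), as did the ceramide synthase gene *Cers5* (0.72, edgeR adjusted p = 0.00214) and *Dip2b* (0.65, edgeR adjusted p = 0.0015). *Gpd1*, which is high in fat and muscle, fell by 2.79 (edgeR adjusted p = 0.0316), the mitochondrial gene *Cox14* by 1.55 (adjusted p = 0.000126), and the transcription factor gene *Atf1* by 1.21 (adjusted p = 0.000736). *Dhh*, whose regulatory sequence drives Cre in these mice, has its start at -753.1 kb from that of *Racgap1*, toward lower coordinates on the same chromosome. It was at 75.7 ± 45.9 CPM in controls, 327 ± 133 CPM in slow-growing PNs, and 404 ± 55.2 CPM in fast-growing PNs (2.27 in PNs versus controls, SE 0.387, edgeR adjusted p = 0.000755). *Dhh* is itself an SC gene, and the sources used here do not say where the Cre transgene lies.

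**Figure D4:**
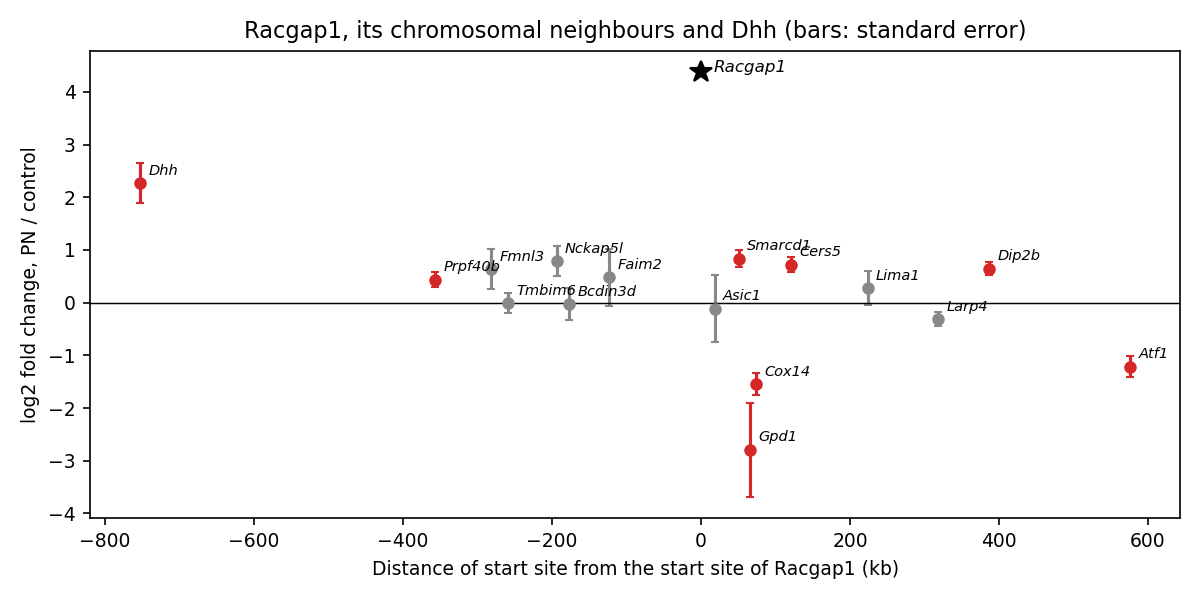
Log2 fold change in PNs versus controls against the distance of each gene's start from that of *Racgap1* in kb, for 15 tested neighbours and *Dhh*, with bars for the standard error and red for genes that passed the edgeR test. *Racgap1* (star, chosen by this difference and not tested) is drawn at 4.38, and the tested neighbours lie between -2.79 and 0.84.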

How the data were processed

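Bulk RNA-seq was analysed in 14 libraries. Per the labels and methods, total RNA was turned into libraries with an Ovation (NuGEN) amplification kit. The authors used CASAVA 1.4, TopHat2 2.0.9 on mm10, and featureCounts 1.5.2, and deposited whole-number counts per gene without normalization. Of the columns, 10 are headed only by a number. Their unit was entered as other for that reason, and the deposited values are counts like those of the remaining columns. The deposited log2 values were not used. The authors' annotation and strand setting are not given in the sources used here.

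Counts were fitted in R 4.3.3 with edgeR 4.0.16 (filterByExpr, TMM, quasi-likelihood test), with only the libraries of a comparison in the fit, and called at a Benjamini-Hochberg adjusted p under 0.05 over all genes tested. Intervals are log2 fold change ± 1.96 SE. No covariate was used. P-values measure the spread between these libraries. Correlations used SciPy 1.17.1 with 100000 permutations (exact enumeration for 6 libraries). Floors cover counting error only. Alternatives were RLE size factors, DESeq2 1.42.0, no filter, 1 fit of all libraries, marker covariates, and leaving out each library. No pair of libraries was identical (91 compared). GENCODE vM21 matched 22708 genes by symbol.

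The members and lists were chosen with earlier results of these data known. Text names all members, called list genes (up to 6 per list), the 5 genes most like *Racgap1*, called neighbours (up to 6), *Dhh*, *Mki67*, and *Top2a*. *Nf1*, *Rhoa*, *Foxm1*, and *Asic1* were added after their values had been seen, as were *Sox10*, *Kcnj10*, and the fibroblast genes named. Results of some items are not reported here. On simulated data, edgeR recovered 63.6%, 48%, 69%, and 77% of genes with a log2 fold change of 2 in PN, slow, and fast versus control and fast versus slow, with 2.13%, 6%, 5.56%, and 4.55% of calls false.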

Additional observations from a re-analysis of the deposited data

Results flagged for a closer look

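In 18 groups of 4 or more libraries (each of the 9 genes in slow- and in fast-growing PNs), the highest and the lowest library were compared with the nearest of the others by Dixon's ratio. Chance passes about 1 such group in 20. The fast-growing PN 1191 passed for *Prc1*, at 33.8 CPM against 21.4 CPM in the next PN, where the gap was 0.722 of the range of the group. It also passed for *Plk1*, at 6.58 CPM against 3.03 CPM in the next fast-growing PN, where the gap was 0.74 of the range. The slow-growing PN 1079 was close to it for *Plk1*, at 6.38 CPM. This library also had nearly no neuron markers (30.8 CPM). The part of tissue composition in these levels was not tested.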

How the results depend on the processing

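Of 740 values recomputed, 689 were classed as the same, which for tested estimates means the same side of the threshold. Of the rest, 37 counts moved, 10 estimates passed only under the alternative, and 4 no longer passed. No called value changed sign. Estimates that passed in neither fit were classed as the same even where their sign turned. The *Plk1* estimate in PNs versus controls, for example, went from -0.41 to 0.58 without DRG5. Partners called in PNs versus controls numbered 0 at first, 1 with DESeq2, 1 with a joint fit of all 14 libraries, and 0 to 1 when 1 library was left out. In slow-growing PNs versus controls they numbered 0, 1 with DESeq2, and 0 to 1 with 1 library left out, and in fast-growing PNs versus controls 1, 2 with DESeq2, 0 with muscle and fat covariates, 1 with the lymphocyte covariate (*Prc1* in place of *Anln*), and 0 to 1 with 1 library left out. Mitotic genes called in PNs versus controls numbered 4, with 0 under muscle and fat covariates, 1 under the lymphocyte covariate, and 1 to 7 with 1 library left out. In slow-growing PNs versus controls they numbered 1, with 3 by DESeq2, 0 without the filter, 2 in the joint fit, 0 under either set of covariates, and 0 to 3 with 1 library left out. In fast-growing PNs versus controls they numbered 0, with 3 by DESeq2, 2 in the joint fit, 2 under the lymphocyte covariate, and 0 to 5 with 1 library left out. The cause of these shifts was not tested. The shares of all genes called in these alternative fits are not given here, so the shifts cannot be read as particular to the partners or mitotic genes. Between fast- and slow-growing PNs both counts were 0 throughout. The count of partners correlated with *Racgap1* was 0 under all alternatives, with a lowest adjusted permutation p of 0.0555 without 1206. The lymphocyte covariate was chosen after seeing the data. Muscle and fat marker means did not overlap between controls and PNs, so fits against controls with these covariates cannot separate them from group. No paired analysis was possible because the libraries of different groups share no replicate numbers. Low-level genes such as *Aurkb*, with as few as 9 counts in a PN, are limited by depth.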
